A study of Oryctolagus cuniculus with 30 samples.

Results

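The 10 genes of squamous differentiation and the cornified envelope described here were followed in rabbit vocal fold mucosa: CNFN, SCEL, PPL, EVPL, TGM1, TGM3, ECM1, MAL, CRNN and A2ML1. They were taken by symbol, keratins being left out, and all 10 of the 10 are in the count table of 31346 genes and passed the filter on low counts. The tissue came from 15 New Zealand white rabbits, 3 per group in 5 groups, and each fold of an animal was sequenced apart, giving 30 libraries. Control rabbits had neither injury nor injection (label no injury/control). In the injury_only, Col1, VFLP (man) and VFLP (au) groups both folds were injured by stripping of the superficial mucosa, and the injury_only rabbits were given nothing further. The other rabbits received 20 µL in each fold 7 days after injury, either type I collagen (Col1) or the VFLP (man) or VFLP (au) material, which the series title describes as hydrogels of vocal fold lamina propria. Tissue was collected 28 days after treatment, and the labels do not say from which day this runs for injury_only. What man and au stand for is not stated in the labels, and the age and sex of the animals are not used here.

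The vibrating edge of the vocal fold is covered by stratified squamous epithelium, whose cells leave the basal layer, flatten and change their protein content on the way to the surface. In the upper layers, proteins such as periplakin, envoplakin, sciellin and cornifelin are laid under the plasma membrane and joined by transglutaminases, which form bonds between glutamine and lysine residues. The resulting cornified envelope is thick in epidermis and thinner in the mucosa of mouth, oesophagus and larynx, where the surface cells usually do not keratinize fully.

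Libraries held 14.2 to 31.9 M gene reads. Levels are read counts scaled to the library total (CPM) after TMM scaling, with both folds of an animal summed unless a fold is named, and since CPM does not account for transcript length, levels are not compared between genes. A gene is said to rise or fall where the edgeR quasi-likelihood test gave an adjusted p under 0.05 over all genes tested. All control libraries and 5 of the 6 injury_only libraries lie in batch C of the labels, while all injected libraries and 1 injury_only library lie in batch D, so that batch and injection cannot be told apart. All 19 basal and pan-epithelial marker genes in the table reached a mean of 1 CPM in every group. In control all 15 skeletal muscle, 16 fibroblast and 8 endothelial genes did so too, so this does not test the tissue label. The right fold of control animal 2 stands apart, with the lowest depth (14.2 M), 0.021% of its reads on the 10 genes and 0.0732% on the basal and pan-epithelial genes, against 0.109 to 0.829% and 0.258 to 1.34% in the other 29 libraries. Comparisons with control are given below with and without it. In such bulk samples, fewer squamous cells and less RNA per squamous cell cannot be told apart.

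SCEL was the 1 gene of the 10 that differed over the 5 groups (edgeR, adjusted p = 0.0157, against 28.4% of all genes tested). SCEL encodes sciellin, an envelope precursor. Its level in animals 1, 2 and 3 was 1070, 590 and 805 CPM in control and 603, 886 and 1030 CPM in injury_only. It was 1430, 1130 and 1790 CPM in Col1, 2330, 1650 and 1670 CPM in VFLP (man), and 2050, 1430 and 1500 CPM in VFLP (au). Every one of the 9 injected animals thus lay above every one of the 6 animals without injection. DESeq2 called 4 of the 10 over the groups (SCEL, MAL, ECM1 and CNFN), against 7826 of 17770 genes. With batch as a covariate edgeR called 0 of the 10 (smallest adjusted p = 0.25), against 1535 of 17815 genes. That batch term rests on the 1 injury_only library in batch D, so the fit cannot separate batch from injection.

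PPL and EVPL encode periplakin and envoplakin, plakin proteins that pair with each other and link the envelope to desmosomes and intermediate filaments. PPL stood at 1020, 567 and 943 CPM in control, 632, 993 and 1050 in injury_only, 1360, 967 and 1960 in Col1, 1560, 1210 and 1190 in VFLP (man), and 1650, 1460 and 1070 in VFLP (au). Its highest animal was 3.45 times its lowest, the narrowest span of the 10 genes. EVPL stood at 91, 9.27 and 16 CPM in control, 10.1, 8.65 and 44.2 in injury_only, 22.8, 8.01 and 53.9 in Col1, 83.3, 115 and 21 in VFLP (man), and 115, 106 and 66.3 in VFLP (au). In VFLP (au) all 3 animals were high, whereas in control and injury_only 1 animal of each group was far above the other 2. The partner of PPL thus spanned 14.3-fold over the same animals.

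CNFN encodes cornifelin, a small cysteine-rich envelope protein. Its levels were 225, 114 and 175 CPM in control, 121, 74.6 and 124 in injury_only, 242, 180 and 296 in Col1, 231, 73.5 and 55.1 in VFLP (man), and 313, 282 and 199 in VFLP (au). Col1 and VFLP (au) lay above injury_only without overlap. VFLP (man) was split, with animal 1 within the range of the Col1 animals and the other 2 below all injury_only animals.

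TGM1 and TGM3 are the transglutaminases among the 10. TGM1, which is anchored in the membrane, measured 137, 39 and 93 CPM in control, 52, 73.8 and 53.5 in injury_only, 153, 68.7 and 182 in Col1, 107, 53.6 and 80.3 in VFLP (man), and 166, 176 and 81 in VFLP (au). TGM3, which is activated by proteolysis, measured 49.8, 1.14 and 5.37 CPM in control, 14.8, 20.5 and 23.6 in injury_only, 14.5, 27 and 12.2 in Col1, 24.1, 17 and 34 in VFLP (man), and 33.5, 8.76 and 10.2 in VFLP (au). The control animals held both the highest and the lowest TGM3 level of all 15, a 43.6-fold span, while the injury_only animals stayed within 1.6-fold.

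ECM1 encodes a secreted glycoprotein made by suprabasal keratinocytes and other cells. It stood at 453, 246 and 126 CPM in control, 183, 247 and 338 in injury_only, 447, 256 and 277 in Col1, 192, 257 and 344 in VFLP (man), and 633, 856 and 377 in VFLP (au). The VFLP (au) animals lay above all injury_only and all VFLP (man) animals. MAL encodes a membrane proteolipid of apical transport that is abundant in upper cells of stratified mucosa. It stood at 964, 538 and 892 CPM in control, 743, 702 and 853 in injury_only, 1390, 1040 and 1990 in Col1, 1550, 899 and 1180 in VFLP (man), and 1800, 1380 and 1020 in VFLP (au). No injected group overlapped injury_only for MAL.

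CRNN encodes cornulin, a fused-type S100 protein of late squamous differentiation in oesophagus and mouth. It measured 67.2, 21.2 and 28.9 CPM in control, 8.78, 9.72 and 36.1 in injury_only, 9.89, 56.5 and 10.7 in Col1, 300, 8.65 and 1.95 in VFLP (man), and 86, 10.6 and 91.9 in VFLP (au). The highest and the lowest of all 15 animals were both VFLP (man) animals, and the span between them, 154-fold, was the widest of the 10 genes. A2ML1 encodes a protease inhibitor of the alpha-2-macroglobulin family. It was low throughout, at 0.393, 4.02 and 1.34 CPM in control, 2.58, 9.15 and 6.29 in injury_only, 0.87, 1.8 and 1.62 in Col1, 4.65, 0.963 and 3 in VFLP (man), and 14.5, 1.35 and 3.22 in VFLP (au). Groups overlapped widely for CRNN, TGM3 and A2ML1, apart from A2ML1 in Col1, where all 3 animals were below the 3 injury_only animals.

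**Figure D1:**
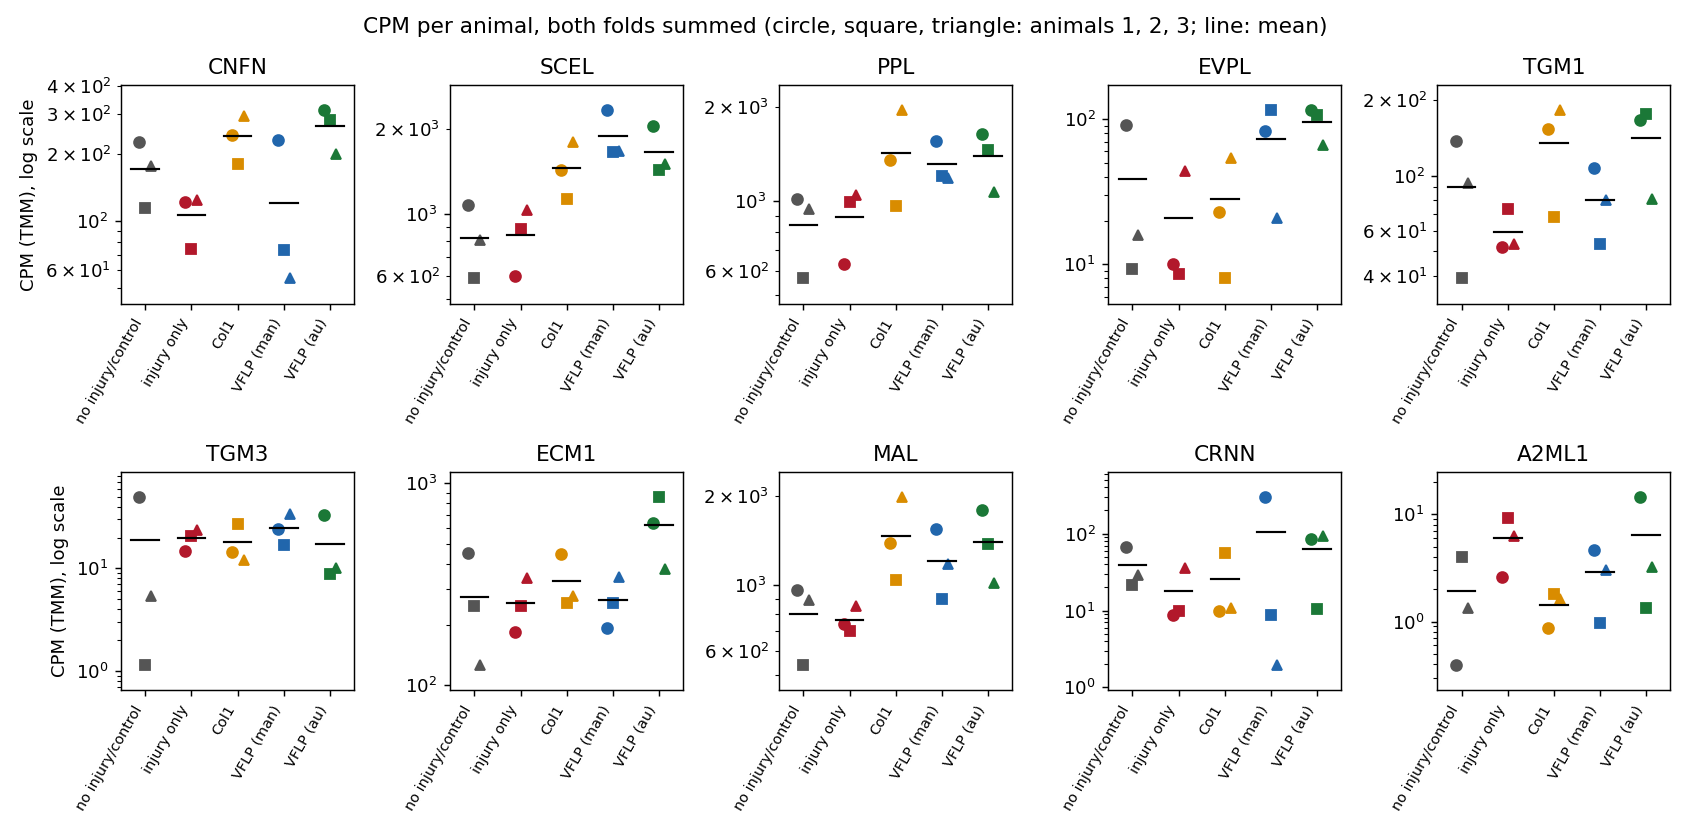
Level of each of the 10 genes in each animal (CPM after TMM scaling, both folds summed, log axis differing between panels), by group, with 1 point per animal and a line at the group mean. SCEL lies between 1130 and 2330 CPM in the 9 injected animals and between 590 and 1070 CPM in the other 6, while CRNN runs from 1.95 to 300 CPM within VFLP (man).

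Injury alone left no detected change in these genes at this sample size. Between injury_only and control, 0 of the 10 passed the test in the edgeR fit with batch as a covariate, against 22.1% of all genes. The count was also 0 in that fit at an unadjusted p under 0.05, against 6556 of 17815 genes. At the adjusted threshold it was 0 by DESeq2, by limma voom and by edgeR without a batch term. All genes called there were 5488 of 17815, 2994 of 16475 and 4138 of 17770. Limma voom had 1 of 10 at an unadjusted p under 0.05. No gene of the 10 separated the animals of the groups without overlap, against 42.3% of all genes in either direction. The median log2 fold change of the 10 was -0.17, against 0.02 for all genes, and single values ran from -1.10 for CRNN (SE 1.41) to 1.67 for A2ML1 (SE 0.95). The direction turned with the fold: the median was -0.80 in left folds alone, with 1 of 10 genes above 0, and 0.76 in right folds alone, with 9 of 10 above 0. It was 0.31 with limma voom on the 30 libraries, with 6 of 10 above 0. It was also above 0 without control animal 1 (0.13) or injury_only animal 1 (0.03). Without the right fold of control animal 2 it was -0.33, with 0 of 10 called. TGM3 depended on 1 animal: without control animal 1 its log2 fold change was 2.60 and it was called (edgeR, adjusted p = 0.0279), as against 0.08 with all animals. CNFN was called lower (log2 fold change -1.99, adjusted p = 0.0495) with the skeletal muscle level as a covariate, and A2ML1 higher (5.02, adjusted p = 0.0141) in right folds alone. That A2ML1 value rests on counts near the floor, with 7, 2 and 0 reads in the right folds of control animals 1, 2 and 3. All genes called in these fits were 333 of 17815 and 4348 of 16576.

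Against injury_only, no gene of the 10 passed the test in any injected group, although 8, 9 and 9 of the 10 had a fitted value above 0 in Col1, VFLP (man) and VFLP (au). For Col1, 0 of 10 were called against 0% of all genes, with 5 of 10 at an unadjusted p under 0.05. For VFLP (man), 0 of 10 were called against 1.06% of all genes, with 1 of 10 at an unadjusted p under 0.05. For VFLP (au), 0 of 10 were called against 0% of all genes, with 6 of 10 at an unadjusted p under 0.05. Among all 17770 genes, 2530, 3051 and 2289 had an unadjusted p under 0.05 in Col1, VFLP (man) and VFLP (au). The median log2 fold change of the 10 was 0.59, 0.50 and 1.11 in Col1, VFLP (man) and VFLP (au), with the median of all genes within 0.02 of zero. For the basal and pan-epithelial genes the median was 0.485, 0.286 and 0.229. DESeq2 called SCEL in VFLP (man) and in VFLP (au) and no other of the 10 in these 3 comparisons, and limma voom called none. Of all genes, DESeq2 called 380, 1249 and 201 of 17770 in Col1, VFLP (man) and VFLP (au), and limma voom 3, 11 and 3 of 16475. With the muscle level as a covariate the direction of the set turned in VFLP (man), where the median was -0.45 with 2 of 10 above 0, while in Col1 it was 0.21 with 6 of 10 above 0 and in VFLP (au) 0.77 with 9 of 10 above 0.

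Several genes nevertheless separated the animals. Col1 animals were higher without overlap for CNFN (2.25-fold), MAL (1.92-fold) and SCEL (1.73-fold), 3 of 10 against 12.1% of all genes, and lower for A2ML1 (4.19-fold), 1 of 10 against 10.8%. VFLP (man) animals were higher for SCEL (2.24-fold, log2 SE 0.29, edgeR adjusted p = 0.0703), MAL (1.58-fold) and PPL (1.49-fold), 3 of 10 against 11.6%. VFLP (au) animals were higher for EVPL (4.55-fold), CNFN (2.48-fold), ECM1 (2.43-fold), TGM1 (2.36-fold), SCEL (1.97-fold), MAL (1.83-fold) and PPL (1.57-fold), 7 of 10 against 12.8%. The genes that did not separate VFLP (au) from injury_only were TGM3, A2ML1 and CRNN. These 3 comparisons share the injury_only animals, so their values are not independent of each other. In VFLP (man), MAL and PPL had log2 fold changes of the opposite sign (-0.57 and -0.20) with the muscle level as a covariate.

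Against control, SCEL rose in all 3 injected groups and MAL rose in Col1. SCEL was 1.76-fold higher in Col1 (log2 SE 0.28, edgeR adjusted p = 0.0441), 2.29-fold higher in VFLP (man) (SE 0.29, adjusted p = 0.00662) and 2.02-fold higher in VFLP (au) (SE 0.28, adjusted p = 0.0211). MAL was 1.85-fold higher in Col1 (SE 0.31, adjusted p = 0.0452). The calls make 2 of 10 in Col1 against 32.1% of all genes in either direction and 13.5% higher, 1 of 10 in VFLP (man) against 37.3% and 16.7%, and 1 of 10 in VFLP (au) against 27.5% and 10.8%. Calls among the 10 were therefore not more frequent than among all genes taken in either direction. Animals were higher without overlap for SCEL and MAL in Col1 (2 of 10 against 22.8% of all genes), for SCEL and PPL in VFLP (man) (2 of 10 against 24.6%; PPL 1.57-fold, adjusted p = 0.112), and for SCEL, MAL and PPL in VFLP (au) (3 of 10 against 20.8%; MAL 1.75-fold, adjusted p = 0.0682; PPL 1.66-fold, adjusted p = 0.0953). The 3 comparisons share the control animals. Of the 10 genes, 6, 7 and 9 had a fitted value above 0 in Col1, VFLP (man) and VFLP (au), with medians of 0.37, 0.60 and 0.77 (basal and pan-epithelial genes 0.754, 0.505 and 0.473). The direction of the set turned with the muscle level as a covariate, where 3, 2 and 5 of 10 were above 0 with medians of -0.75, -0.95 and -0.08, and in Col1 also in left folds alone (median -0.21, 3 of 10 above 0) and with the level of the basal and pan-epithelial genes as a covariate (median -0.12, 5 of 10 above 0).

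**Figure D2:**
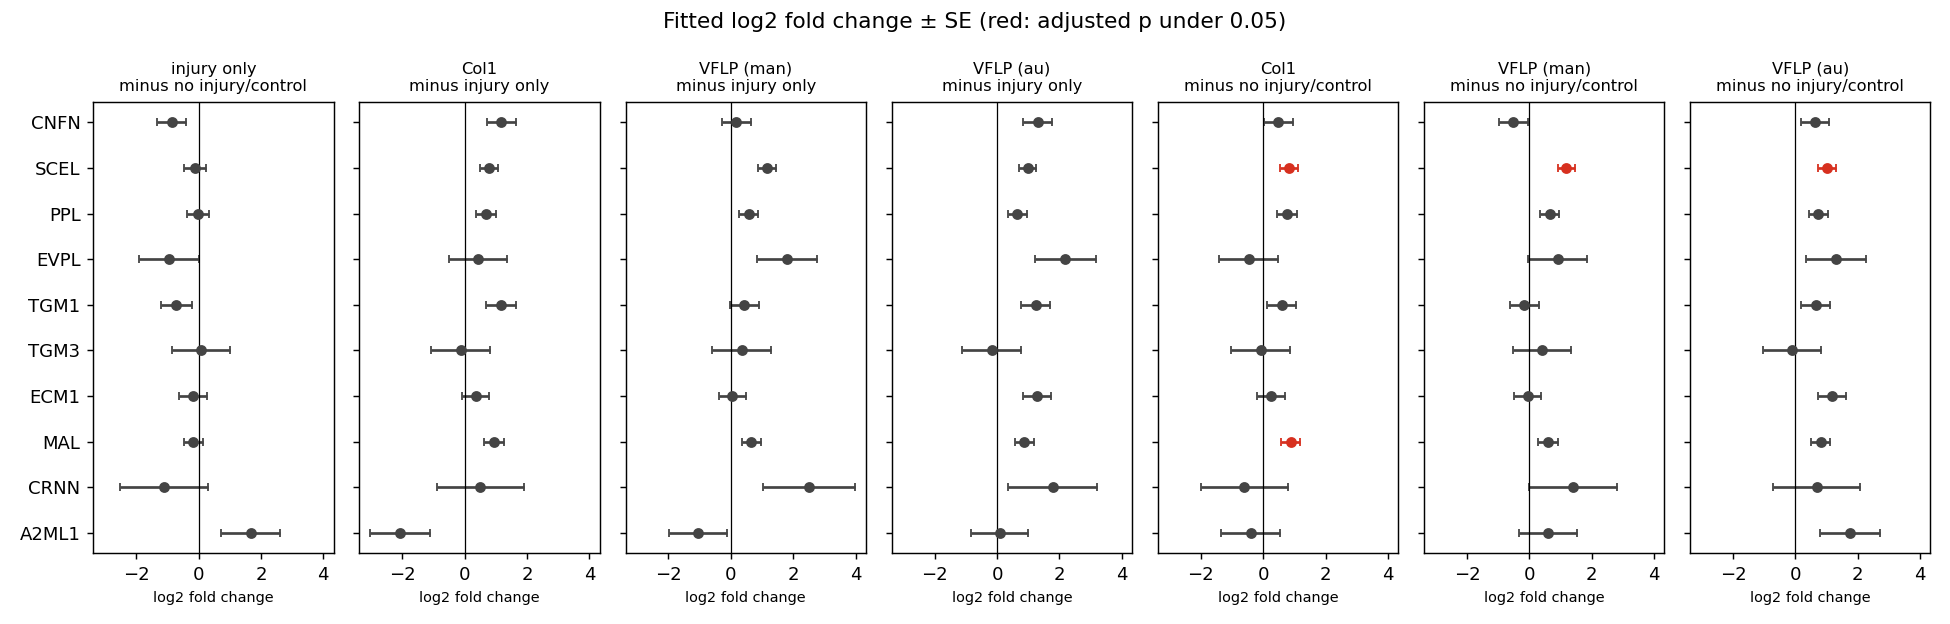
Fitted log2 fold change of each gene in 7 comparisons, with bars of 1 SE and red points where the edgeR adjusted p is under 0.05; the comparison of injury only with control has batch as a covariate and the others do not. The red points are SCEL in all 3 injected groups and MAL in Col1, all against control, and the widest bars are those of CRNN.

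The rise of SCEL against control depended on which libraries and terms were in the fit. Without the right fold of control animal 2 the log2 fold changes of SCEL were 0.65, 1.02 and 0.84 in Col1, VFLP (man) and VFLP (au) (edgeR, adjusted p = 0.0624, 0.00712 and 0.0272) and that of MAL in Col1 was 0.74 (adjusted p = 0.0532). Without control animal 2 altogether SCEL was 0.60, 0.98 and 0.78 (adjusted p = 0.172, 0.0312 and 0.0985). In VFLP (man) the call held without any 1 animal of either group. In Col1 the calls of SCEL and MAL were both lost without control animal 3, Col1 animal 1 or Col1 animal 3 as well (SCEL 0.80, 0.83 and 0.64, adjusted p = 0.104, 0.0855 and 0.154; MAL 0.96, 0.93 and 0.61, adjusted p = 0.0724, 0.0777 and 0.186), and in VFLP (au) that of SCEL without control animal 3 or VFLP (au) animal 1 (0.98 and 0.81, adjusted p = 0.0611 and 0.0793). In left folds alone the log2 fold changes of SCEL were 0.23, 0.82 and 0.75 and in right folds alone 1.95, 2.11 and 1.77. SCEL was called in no injected group in left folds (adjusted p = 0.763, 0.18 and 0.267), and SCEL in Col1 and VFLP (man) was called in right folds (adjusted p = 0.0281, 0.0203 and 0.0524), while in VFLP (au) the 1 gene of the 10 called in right folds was A2ML1 (adjusted p = 0.0159). A2ML1 had only 7, 2 and 0 reads in the right folds of control animals 1, 2 and 3. Of all genes, 18, 2867 and 1706 of 16601 were called in left folds and 7762, 7537 and 5710 of 16576 in right folds. With batch as a covariate the log2 fold changes of SCEL were 0.69, 1.07 and 0.89 (edgeR, adjusted p = 0.674, 0.405 and 0.656). That term rests on the 1 injury_only library in batch D, so it cannot separate batch from injection. With the muscle level as a covariate the log2 fold changes of SCEL were 0.18, 0.25 and 0.53 (edgeR, adjusted p = 0.912, 0.921 and 0.685). In that fit 0, 1 and 0 of all 17770 genes were called, and with batch as a covariate 0, 29 and 0 of 17815. The loss of calls under these covariates was thus not particular to SCEL. MAL in Col1 had a log2 fold change of -0.45 with the muscle level as a covariate. With limma voom SCEL was called in VFLP (man) (adjusted p = 0.0306) and not in Col1 (adjusted p = 0.0809) or VFLP (au) (adjusted p = 0.0624), where ECM1 was called instead (adjusted p = 0.0314). DESeq2 called MAL, SCEL and PPL in Col1 (PPL adjusted p = 0.0485), SCEL in VFLP (man), and MAL, SCEL and ECM1 in VFLP (au). Of all genes, limma voom called 5945, 6914 and 4934 of 16475 in Col1, VFLP (man) and VFLP (au), and DESeq2 6673, 7658 and 5959 of 17770. Control animal 1, whose TGM3 was the highest of all animals, decided the value of that gene: without it TGM3 was higher by 2.44, 2.91 and 2.40 in Col1, VFLP (man) and VFLP (au) (adjusted p = 0.0262, 0.0115 and 0.0311), and in VFLP (au) ECM1 (1.73, adjusted p = 0.0132) and EVPL (2.90, adjusted p = 0.0465) were called too. ECM1 was also called there without VFLP (au) animal 3 (1.42, adjusted p = 0.0499). Without VFLP (man) animal 1, CNFN was called lower than control in that group (-1.41, adjusted p = 0.0103).

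Between the injected materials, no gene of the 10 passed the test. VFLP (man) against Col1 gave 0 of 10 called against 0% of all genes, and 0 of 10 separated the animals against 15% in either direction. VFLP (au) against Col1 gave 0 of 10 called against 0% of all genes, with EVPL higher without overlap (3.38-fold, log2 SE 0.98), 1 of 10 against 4.81%. VFLP (man) against VFLP (au) gave 0 of 10 called against 0.0505% of all genes, with ECM1 lower without overlap (2.35-fold, log2 SE 0.46), 1 of 10 against 9.25%. At an unadjusted p under 0.05 the counts were 0, 1 and 2 of 10, and DESeq2 and limma voom called 0 of 10 in each pair. A p above the threshold does not show that the materials act alike here, since the SE for CRNN, EVPL, TGM3 and A2ML1 was 0.92 to 1.44 on the log2 scale in these pairs.

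Other tissue genes moved with the groups. The 15 skeletal muscle genes in the table (of 20 listed) took 4.15 to 6.63% of reads in control animals, 0.906 to 1.98% in injury_only, 0.271 to 0.76% in Col1, 0.0624 to 0.436% in VFLP (man) and 0.569 to 1.33% in VFLP (au), and none of the 15 was at 0 reads in any group. Against control, 9 of 15 fell in injury_only, 15 in Col1, 15 in VFLP (man) and 13 in VFLP (au), and 5, 16, 15 and 13 of the 16 fibroblast genes fell in the same order. Of the 8 endothelial genes, 2, 6, 8 and 8 fell. The share of all genes that fell was 13.7%, 18.6%, 20.5% and 16.7% in that order. Of the 9 immune genes in the table, 4, 3, 4 and 3 rose, and of the 13 secretory and gland genes 4, 3, 3 and 2 rose, against 8.33%, 13.5%, 16.7% and 10.8% of all genes. Of the 11 ciliated genes 2, 0, 1 and 0 rose, with or without the right fold of control animal 2. Secretory and gland genes took 0.0664 to 1.1% of reads in control animals and 3.91 to 6.88% in injury_only. They took 1.23 to 3.88% in Col1, 0.249 to 2.14% in VFLP (man) and 0.273 to 3.37% in VFLP (au). Without the right fold of control animal 2, 9, 15, 15 and 13 muscle genes, 4, 15, 14 and 11 fibroblast genes and 1, 6, 8 and 8 endothelial genes fell, and 4, 2, 4 and 1 immune genes and 3, 3, 3 and 2 secretory and gland genes rose. Against injury_only the median log2 fold change of the secretory and gland list was -0.433, -1.76 and -1.37 in Col1, VFLP (man) and VFLP (au), with 0 called. That of the ciliated list was -2.22, -0.266 and -1.87, with 0 called. The part of these tissue genes in the differences of the squamous genes was not tested beyond the fit with the muscle level as a covariate.

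The level of basal and pan-epithelial genes was lowest in 1 control animal. The mean log2 CPM of the 19 basal and pan-epithelial genes was 7.48 ± 0.66 in control (SD, n = 3 animals, here and below), 7.80 ± 0.10 in injury_only, 8.22 ± 0.26 in Col1, 8.03 ± 0.13 in VFLP (man) and 8.04 ± 0.24 in VFLP (au). Control animals 1, 2 and 3 were at 7.99, 6.73 and 7.73, and without the right fold of animal 2 they were at 8.01, 7.18 and 7.75, with a mean of 7.64 ± 0.42. Over the 5 groups 1 of the 19 was called, against 28.4% of all genes. Against control, 0 of the 19 rose in injury_only, 6 in Col1, 5 in VFLP (man) and 3 in VFLP (au) (0, 8, 4 and 4 without that right fold), beside the 8.33%, 13.5%, 16.7% and 10.8% of all genes that rose. ESRP2, an epithelial splicing factor, rose by 2.03-, 2.04- and 2.15-fold in the injected groups (adjusted p = 0.00406, 0.00304 and 0.00405). Set against that mean, the log2 level of SCEL was 2.16 ± 0.28 above it in control, 1.88 ± 0.35 in injury_only, 2.26 ± 0.13 in Col1, 2.83 ± 0.34 in VFLP (man) and 2.64 ± 0.32 in VFLP (au). Relative to basal and pan-epithelial genes, SCEL in Col1 thus differed from control by less than the SD of either group, and in VFLP (man) all 3 animals lay above all 3 control animals. For MAL the same quantity was 2.11 ± 0.21, 1.78 ± 0.21, 2.26 ± 0.26, 2.18 ± 0.38 and 2.37 ± 0.26 in that order of groups, and for PPL 2.19 ± 0.21, 1.96 ± 0.33, 2.20 ± 0.29, 2.33 ± 0.29 and 2.38 ± 0.15. For TGM1 it was -1.18 ± 0.28 in control and -1.92 ± 0.19 in injury_only, and for CNFN -0.12 ± 0.20 and -1.1 ± 0.51, in both genes without overlap of the animals. The share of all genes without overlap on this relative scale was not computed, here or for SCEL above. On the CPM scale 42.3% of all genes did not overlap between injury_only and control. For EVPL it was -1.50 ± 0.21 in VFLP (au) against -3.82 ± 1.32 in injury_only. With the mean of these 19 genes as a covariate, an alternative added after the data were seen, SCEL was called against control in VFLP (man) (log2 fold change 0.88, edgeR adjusted p = 0.0391) and not in Col1 (0.36, adjusted p = 0.5) or VFLP (au) (0.68, adjusted p = 0.137). In the same fits TGM1 was called lower than control in injury_only (-0.996, adjusted p = 0.0202) and in VFLP (man) (-0.90, adjusted p = 0.0374). Of all genes, these fits called 3513 of 17815 in injury_only, and 1944, 4209 and 1750 of 17770 in Col1, VFLP (man) and VFLP (au).

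**Figure D3:**
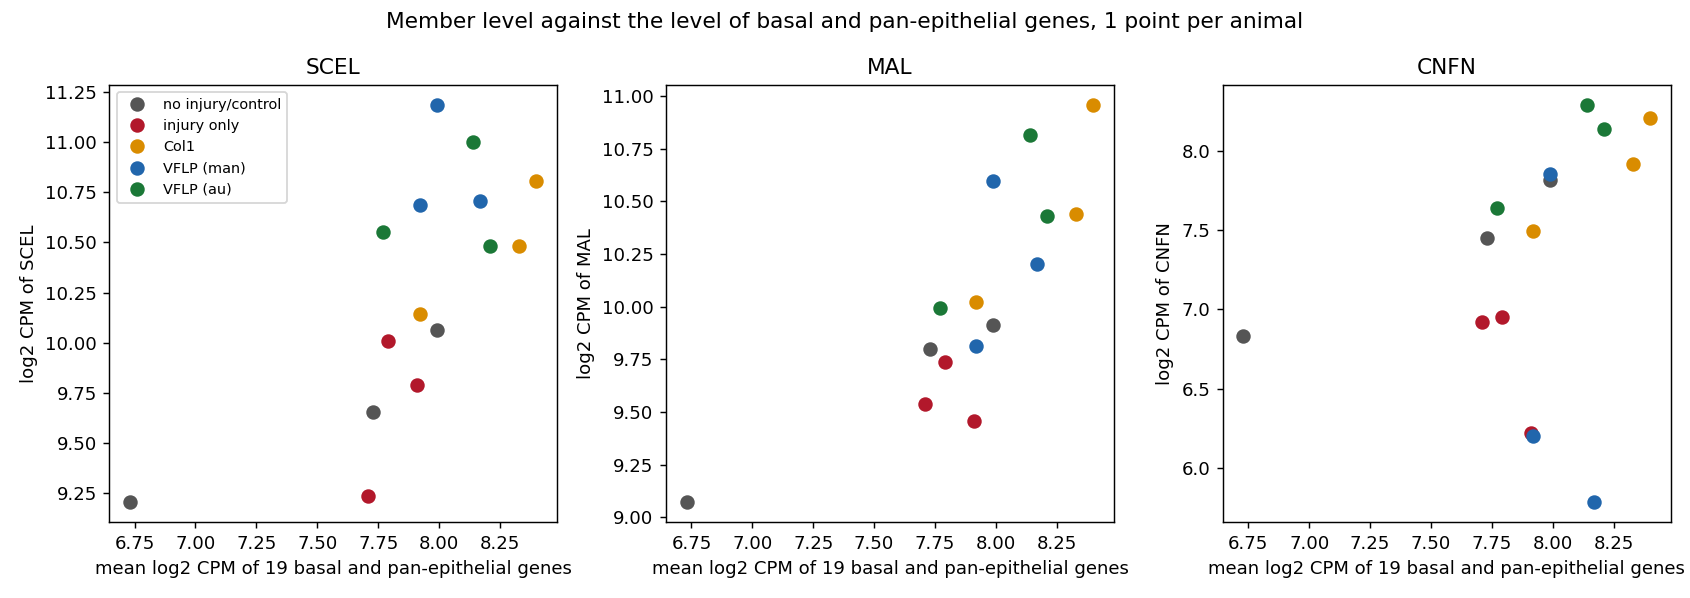
Log2 CPM of SCEL, MAL and CNFN in each of the 15 animals (vertical axes) against the mean log2 CPM of 19 basal and pan-epithelial genes (horizontal axes), coloured by group. Control animal 2 lies at the far left of each panel, and the 2 low blue points in the CNFN panel are VFLP (man) animals 2 and 3, at 73.5 and 55.1 CPM.

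The left and right folds of an animal often differed for these genes. In a fit over the 14 animals with both folds in 1 batch and with the animal as a block, 0 of 10 differed between right and left (edgeR; 0 of 10 at an unadjusted p under 0.05; DESeq2 0), against 0% of all genes. At the unadjusted threshold 1316 of 15301 genes differed between right and left. No member passed a test of whether the side difference varies with the group (adjusted p from 0.148 for EVPL to 0.991 for CRNN), against 9.63% of all genes. The larger of an animal's folds exceeded the smaller by a median of 1.36-fold for MAL and 1.37-fold for ECM1, at one end, and 5.9-fold for CRNN at the other, with the remaining genes between 1.43 and 2.16. SCEL was higher in the left fold in all 3 control animals, at 1370, 879 and 1120 CPM against 811, 63.5 and 329 CPM. The basal and pan-epithelial genes took 1.13, 0.369 and 0.947% of reads in those left folds and 0.522, 0.0732 and 0.258% in the right folds, and the muscle genes 1.38, 5.67 and 3.49% against 6.6, 8.03 and 6.31%. In injury_only animal 3 all 10 genes were higher in the right fold, with SCEL at 375 CPM in the left fold and 1580 in the right, and CNFN at 14.6 and 214 CPM. Secretory and gland genes took 14.7% of reads in that left fold and 0.146% in the right, basal and pan-epithelial genes 0.514% and 0.908%, and muscle genes 1.07% and 2.77%; their part in this difference was not tested.

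CRNN was nearly absent from 1 fold and present in the other in several animals. In injury_only animal 3 the left fold gave 1 read (0.0549 CPM) and the right 1538 reads (65.6 CPM), a ratio of 1190 (95% exact interval 214 to 47200, counting error only). In control animal 1 the levels were 0.201 CPM on the left and 148 on the right, in Col1 animal 2 they were 0.333 and 114, and in VFLP (au) animal 2 they were 0.128 and 24.8. In 6 of the 15 animals the folds differed by more than 10-fold, whereas in VFLP (man) animal 1 both folds were high, at 257 and 343 CPM. In the same 4 left folds SCEL was 375, 1370, 1110 and 1380 CPM, against 1580, 811, 1140 and 1470 CPM in the right folds. KRT4 and KRT13, keratins of non-keratinizing stratified mucosa, had log2 CPM of 9.52 to 13.9 in all 30 libraries. CRNN also had the largest share of reads on the opposite strand among the 10, 8.2%, against 0.393 to 5.33% for the others.

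**Figure D4:**
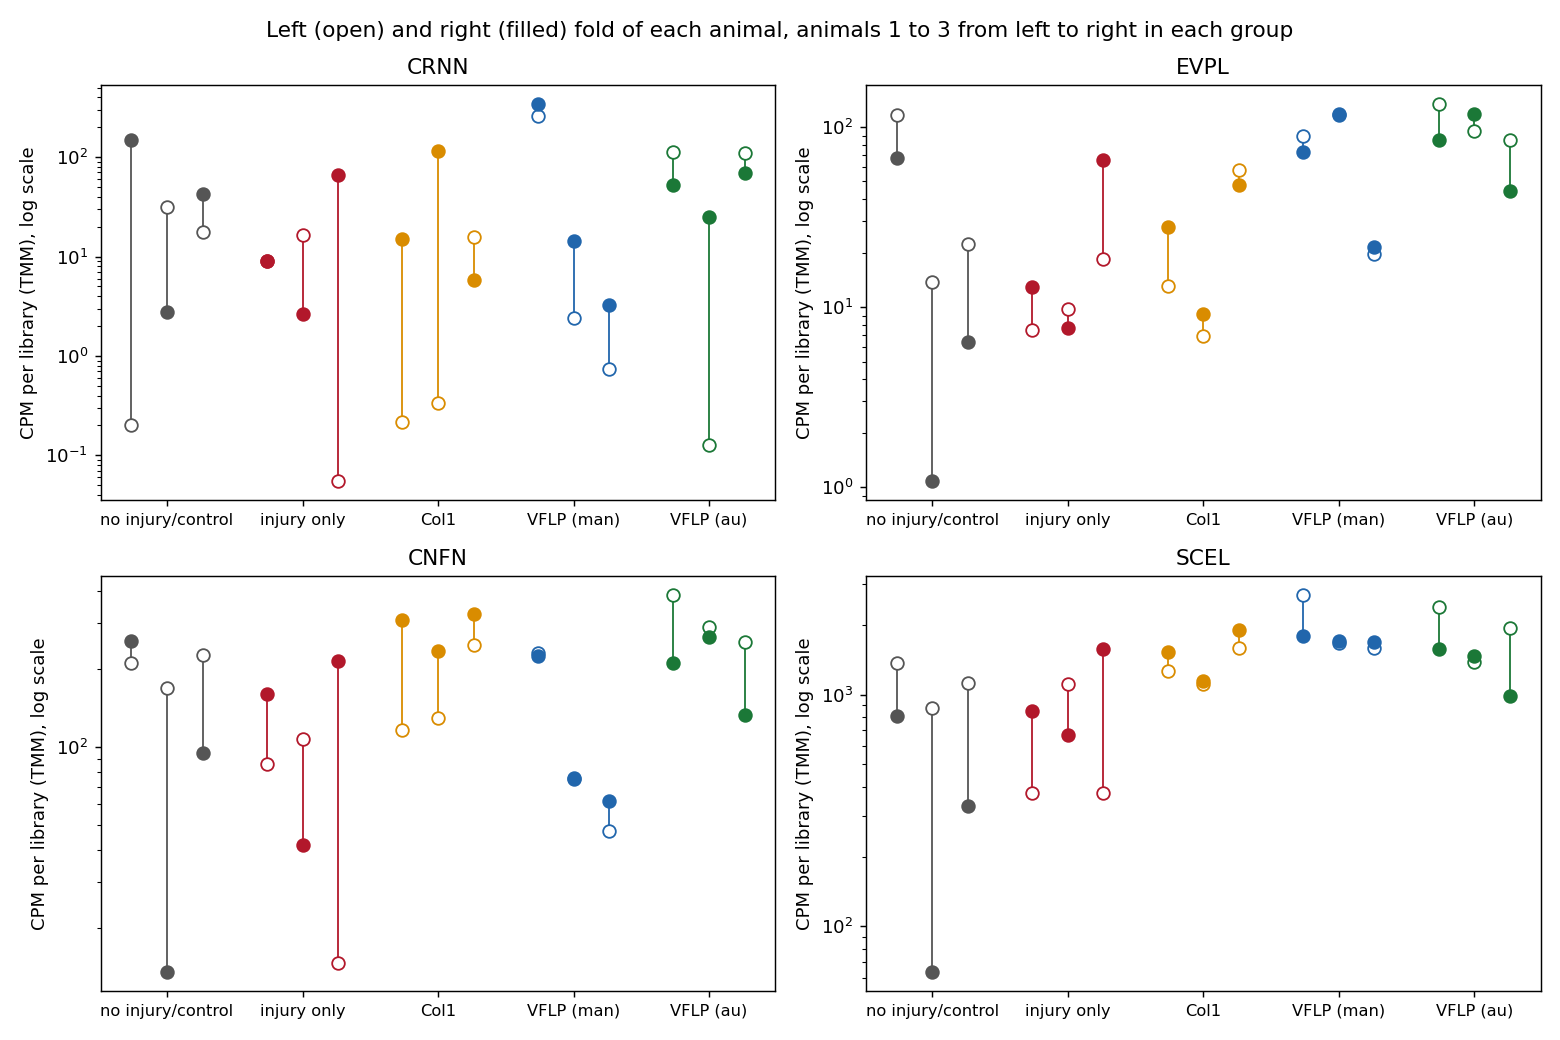
Level of CRNN, EVPL, CNFN and SCEL in the left (open) and right (filled) fold of each animal (CPM per library, log axis), with a line joining the folds of 1 animal. CRNN falls below 0.4 CPM in 5 left folds whose right folds are between 15.1 and 148 CPM, and the low SCEL point at 63.5 CPM is the right fold of control animal 2.

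Over the 15 animals, part of the 10 genes varied together. Of the 45 pairs, 38 had a positive Pearson r of log2 CPM, with a median of 0.412 (0.396 after removal of the group means). MAL and PPL gave r = 0.926, PPL and SCEL 0.908, MAL and SCEL 0.853, and MAL and TGM1 0.847. A2ML1 stood apart, with values from -0.221 with TGM1. These are descriptions over 15 animals that share library depth and the amount of epithelium in the piece of tissue, and no p is given.

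**Figure D5:**
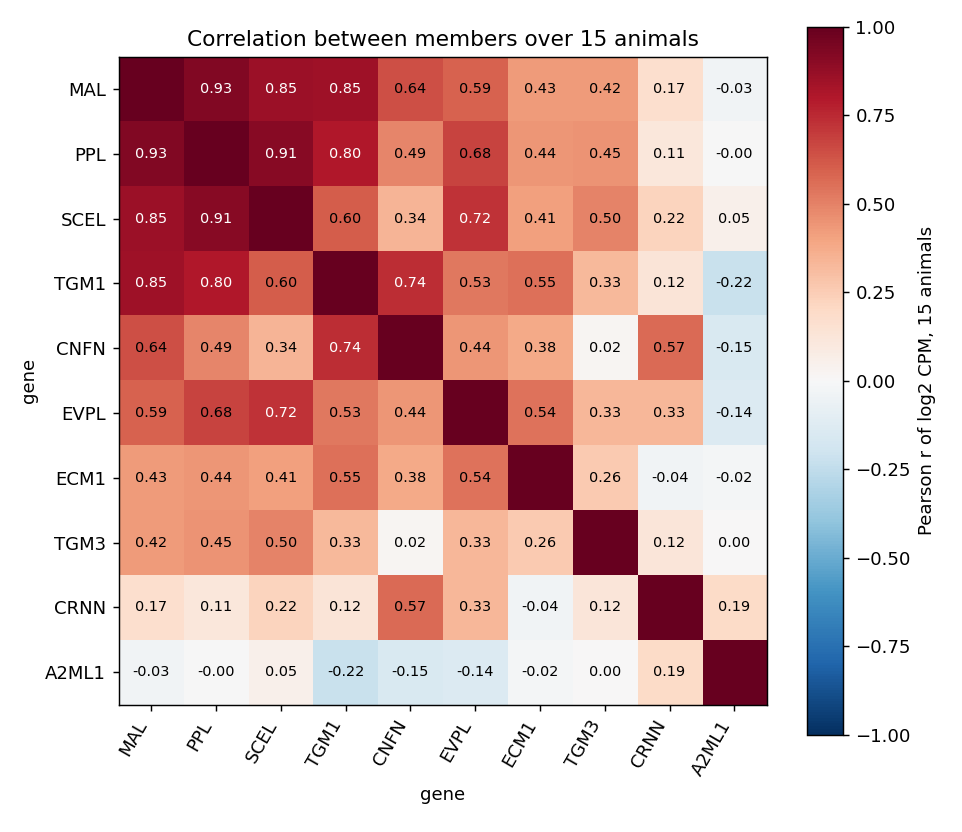
Pearson r of log2 CPM between each pair of the 10 genes over 15 animals, from blue (negative) to red (positive). MAL, PPL and SCEL form the reddest block, with r of 0.853 to 0.926, and the row of A2ML1 is palest.

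Genes outside the set that followed it most closely were found by the r between their log2 CPM and the mean scaled level of the 10 genes over 15 animals. The closest were STX12 (r = 0.93), ZNF710 (0.921), MUC1 (0.921), TBC1D22B (0.913), PLEKHA7 (0.912), HOPX (0.911), STRN (0.909), MDFI (0.909), PLEKHA6 (0.906) and RHBDL2 (0.905). MUC1 encodes a membrane-bound mucin of epithelial surfaces, PLEKHA7 a protein of adherens junctions, and HOPX a homeodomain protein expressed in differentiating squamous cells. The mean level of the basal and pan-epithelial list had r = 0.707 with the mean of the 10 genes, the surface proteases and inhibitors 0.918, and the skeletal muscle list -0.498, with no p. Over the 30 libraries CRNN on its own was followed most closely by TPRG1 (r = 0.779), HOXC6 (0.718) and KLK12 (0.713), genes named after their values were seen. HOXC6 was near the floor throughout, from -3.58 to 0.0218 log2 CPM. The 30 libraries are paired folds of 15 animals and are not independent.

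Wider lists of squamous differentiation held 140 genes, of which 107 are in the table and 95 were tested. Against control, 25 of 95 rose and 1 fell in Col1, 26 rose and 1 fell in VFLP (man), and 24 rose and 1 fell in VFLP (au), with median log2 fold changes of 0.76, 0.70 and 0.81 against 0.12, 0.13 and 0.12 for all genes. In the same comparisons the basal and pan-epithelial list had medians of 0.754, 0.505 and 0.473, and a difference between the lists was not tested. Among all genes 13.5%, 16.7% and 10.8% rose. Without the right fold of control animal 2, 21, 20 and 17 of the 95 rose and 1, 2 and 1 fell, with medians of 0.63, 0.59 and 0.67, and of the 26, 27 and 25 called with it 22, 21 and 18 were called again. In injury_only 6 rose and 1 fell against control (8.33% and 13.7% of all genes), with a median of 0.08 against 0.02 for all genes, and without that right fold 5 rose and 1 fell, with a median of -0.06. Against injury_only 0 of 95 were called in any injected group, with medians of 0.60, 0.52 and 0.62 (basal and pan-epithelial list 0.485, 0.286 and 0.229), and between materials 0 of 95 were called. The 1 gene that fell in each comparison with control was LYNX1, a Ly6-type modulator of nicotinic receptors, at 2.81-fold in injury_only (adjusted p = 0.00488), 3.05-fold in Col1, 3.92-fold in VFLP (man) and 2.6-fold in VFLP (au).

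Transcription factors and kinases of differentiation gave the most calls, with 3 of 20 higher in injury_only and 12 of 20 higher in each injected group against control, where 8.33% of all genes rose in injury_only and 13.5%, 16.7% and 10.8% in the injected groups. Without the right fold of control animal 2 the counts were 3 and, in each injected group, 11. GRHL2, a grainyhead factor of epithelial identity, rose 2.38-fold in injury_only, 2.3-fold in Col1, 2.52-fold in VFLP (man) and 2.1-fold in VFLP (au) (adjusted p = 0.00499, 0.00311, 0.0013 and 0.00787). RIPK4, a kinase needed for keratinocyte differentiation, rose 1.74-, 2.59-, 2.66- and 2.23-fold, and TFAP2A, an AP-2 factor, 1.67-, 1.88-, 2.21- and 1.92-fold in the same order. These 3 passed the test also in injury_only, where 0 of the 10 did; a difference between the sets was not tested.

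Of 20 tested envelope precursors and S100 proteins, 1, 2, 3 and 4 rose against control in injury_only, Col1, VFLP (man) and VFLP (au), at or below the shares of all genes (8.33%, 13.5%, 16.7% and 10.8%) except in VFLP (au). Without the right fold of control animal 2 the counts were 0, 2, 2 and 2. KAZN, which encodes kazrin, a partner of periplakin, rose 2.12-, 2.26-, 3.61- and 2.25-fold (adjusted p = 0.0419, 0.0227, 0.00174 and 0.0274), and without that right fold it was not called in injury_only (adjusted p = 0.0815) or VFLP (au) (adjusted p = 0.0583). S100A11, a calcium-binding envelope component, rose 1.83-, 1.84- and 1.76-fold in the injected groups. SPRR3, a small proline-rich precursor of mucosal envelopes, had a mean of 557 ± 351 CPM in control and 390 ± 151 in injury_only, and of 710 ± 177 in Col1, 744 ± 804 in VFLP (man) and 1330 ± 502 in VFLP (au). The precursors that dominate in epidermis were scarce, LORICRIN with 2 to 21 reads per group and FLG with 2 reads in control and 0 in every other group. SPRR3, LORICRIN and FLG were singled out after their values were seen.

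Of 19 surface proteases and inhibitors, 1, 4, 4 and 2 rose against control in injury_only, Col1, VFLP (man) and VFLP (au), beside 8.33%, 13.5%, 16.7% and 10.8% of all genes (1, 3, 3 and 2 without the right fold of control animal 2). PRSS8, a membrane-anchored serine protease, rose 2.14-fold in injury_only, 2.64-fold in Col1 and 1.96-fold in VFLP (man), and CTSV, a lysosomal cysteine protease, 1.76-fold in VFLP (man) and 1.68-fold in VFLP (au). CTSV also rose in Col1, and was not called there without that right fold (log2 fold change 0.386, edgeR adjusted p = 0.0508). Of 16 barrier lipid genes, 0, 5, 2 and 3 rose beside the same shares of all genes. Without that right fold 0, 3, 0 and 0 rose, and 1 fell in VFLP (man). PNPLA1, an enzyme of acylceramide synthesis, rose 2.48-fold in Col1 and 2.07-fold in VFLP (au), and FA2H, a fatty acid hydroxylase, rose 1.72-fold in VFLP (man) and 1.92-fold in VFLP (au). FA2H also rose in Col1. Without that right fold PNPLA1 was not called in VFLP (au) (adjusted p = 0.0568), nor FA2H in Col1 (adjusted p = 0.0689), VFLP (man) (adjusted p = 0.0943) or VFLP (au) (adjusted p = 0.0576). Of 20 other suprabasal genes, 1, 2, 5 and 3 rose beside the same shares (1, 2, 4 and 2 without that right fold). PSCA, a Ly6-type surface protein of the mucosa, rose 3.11-fold in Col1, 2.22-fold in VFLP (man) and 2.12-fold in VFLP (au), and LY6D rose 6.49-fold in injury_only (adjusted p = 0.0229). LY6D rose in VFLP (man) as well, also without that right fold (log2 fold change 1.98, edgeR adjusted p = 0.0327).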

How the data were processed

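Per the submitters' processing notes, reads were aligned and counted per gene with STAR 2.7.10b; the deposited values are raw read counts. Neither build nor annotation is stated in the labels used here. Libraries were made with a stranded mRNA kit per the labels, and the second-read strand was counted here. Entries without a gene (4) were dropped, and no 2 libraries held the same counts. Fits were made in edgeR 4.0.16 under R 4.3.3 (TMM, quasi-likelihood F test, filterByExpr with a minimum count of 10, Benjamini-Hochberg over all genes tested, threshold 0.05). Injury_only against control and pairs of materials used 16 units with batch as a covariate. The 2 folds of 1 injury_only animal lie in different batches and entered as 2 units treated as independent, which they are not. The batch term rests on the 1 injury_only library in batch D. Materials against injury_only or control, and the test over 5 groups, used 15 animals without a batch term. The SE is the absolute log2 fold change over the square root of F, and list levels are mean log2 CPM with a prior count of 2. Apart from the divided injury_only animal, replicates are animals, and folds of an animal are not independent. Alternatives used DESeq2 1.42.0 and limma 3.58.1; the code was tested on simulated data.

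The 10 genes and all lists were chosen with earlier results of these data known. Fold changes of a member are named where the adjusted p is under 0.05 or the animals do not overlap; of each wider list up to 3 called genes of smallest p per comparison are eligible, and of all other genes the 10 most correlated with the members' mean. Not every eligible gene is reported here. No sequences are printed.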

Additional observations from a re-analysis of the deposited data

Results flagged for a closer look

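Among 50 sets of 6 libraries (10 genes in 5 groups), 8 had 1 library far from the other 5 by Dixon's criterion. Its nominal rate of about 1 in 20 holds for independent, normally distributed values. The 6 libraries of a set are paired folds of 3 animals on the raw CPM scale, so the 8 cannot be read as an excess over chance. CRNN reached 148 CPM in the right fold of control animal 1 (others 0.201 to 42.2), 65.6 in the right fold of injury_only animal 3 (0.0549 to 16.6) and 114 in the right fold of Col1 animal 2 (0.216 to 15.6). EVPL reached 65.9 CPM in that same right fold of injury_only animal 3 (7.51 to 18.5). The left fold of VFLP (au) animal 1 stood out for both TGM3, at 48.5 CPM (2.88 to 15), and A2ML1, at 20.1 CPM (1.18 to 7.51). A2ML1 reached 6.1 CPM in the left fold of control animal 2 (0 to 2.28), and SCEL 2700 CPM in the left fold of VFLP (man) animal 1 (1590 to 1790). In all 8 the outlying library was the highest of its set. The sets share libraries and are not independent.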

How the results depend on the processing

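Of the 10 genes, the number called in each comparison varied with the processing as follows. For injury_only against control (0) it was 1 in right folds alone (A2ML1), with the muscle level as a covariate (CNFN) and with the pan-epithelial level as a covariate (TGM1), and 0 to 1 with an animal left out. All genes called in the settings with 1 were 4348 of 16576, 333 of 17815 and 3513 of 17815, in that order. For VFLP (man) against injury_only (0) the number of the 10 was 1 with DESeq2 and in left folds alone, and for VFLP (au) against injury_only (0) it was 1 with DESeq2, SCEL each time. All genes called there were 1249 of 17770, 711 of 16601 and 201 of 17770. For Col1 against control (2) the number of the 10 was 0 with no filter on low counts, limma voom, left folds alone, only the 2 groups, batch, muscle or pan-epithelial level as a covariate, or the library of lowest depth left out, 1 with unstranded counts or without the injury_only library of batch D, 3 with DESeq2 (MAL, SCEL and PPL), 4 in right folds alone, and 0 to 3 with an animal left out. All genes called were 6673 of 17770 with DESeq2, 7762 of 16576 in right folds and 18 of 16601 in left folds. Among the other settings with 0 of the 10, they ran from 0 with batch or muscle as a covariate to 5945 of 16475 with limma voom. For VFLP (man) against control (1) the number of the 10 was 0 in left folds alone and with batch or muscle as a covariate, 2 with the pan-epithelial covariate, 3 in right folds alone, and 1 to 2 with an animal left out. All genes called were 2867 of 16601, 29 of 17815, 1 of 17770, 4209 of 17770 and 7537 of 16576 in that order of settings. For VFLP (au) against control (1) the number of the 10 was 3 with DESeq2, 0 in left folds alone, with only the 2 groups, with batch, muscle or pan-epithelial level as a covariate and without the library of batch D, and 0 to 4 with an animal left out. Limma voom called ECM1 and right folds alone A2ML1 in place of SCEL. All genes called were 5959 of 17770 with DESeq2, 1706 of 16601 in left folds and 5710 of 16576 in right folds. With batch or muscle as a covariate they were 0, and without the library of batch D 4760 of 17748. Over the 5 groups (1) the number of the 10 was 4 with DESeq2 (7826 of 17770 genes), 0 with batch as a covariate (1535 of 17815 genes) and 1 to 2 with an animal left out. Replicate numbers did not pair the animals (median r of deviations -0.0219 over 30 same-numbered pairs, 0.0169 over 60 others); with the number as a replicate block the count was 2 for VFLP (au) against control and 2 over the 5 groups, and the same as without it elsewhere. With the muscle covariate the number of the 10 genes above 0 went from 9 to 2 in VFLP (man) against injury_only and from 6 to 3, 7 to 2 and 9 to 5 in Col1, VFLP (man) and VFLP (au) against control; among the fold changes named, it turned for MAL (-0.569 in VFLP (man) against injury_only, -0.45 in Col1 and -0.226 in VFLP (au) against control) and PPL (-0.205 in VFLP (man) against injury_only, -0.576 against control). Muscle level and group moved together and cannot be told apart fully in that fit. The batch covariate rested on the 1 injury_only library in batch D wherever it was used. The library of lowest depth and the pan-epithelial covariate were chosen after the data were seen. The causes of these changes were not tested.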

Other observations

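Low counts bound some fold-to-fold differences of A2ML1 and TGM3. A2ML1 gave 47 reads in the left and 0 in the right fold of control animal 3. With 3 reads set in place of 0 it was 11.6-fold higher on the left after scaling (95% exact lower limit with the 0 kept 9.07). It gave 86 against 2 reads in control animal 2 (ratio 25.5, 95% exact interval 6.85 to 214, left higher) and 78 against 2 reads in Col1 animal 3 (ratio 35.1, 9.39 to 295, right higher). TGM3 gave 22 against 3 reads in control animal 2 (ratio 4.35, 1.31 to 22.7, left higher). The intervals cover counting error only. MAL had 7.57% fewer reads without regard to strand than on the strand used, while the other 9 genes had 0.494 to 8.89% more.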
